A study of Mus musculus with 2 samples.

Results

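The 60-base array probes for the chains of antibodies were examined in mouse calf muscle after immobilization. Probes were taken where the array's gene name was that of an immunoglobulin heavy, kappa or lambda locus or of the joining chain, or where the array's description named such a chain. The rule found 165 probes of the 39418 probes with a value. Of these, 4 carry names or descriptions that only resemble the terms searched for (2 for the transcription factor Rbpj, 1 for Rbpjl and 1 for the cell adhesion molecule Iglon5), and they were left out of the chain counts. The other 161 fell into 74 heavy chain, 79 kappa chain and 7 lambda chain probes and 1 probe for the joining chain. The rule itself used names and descriptions and no measured value, but it was written with earlier results of these data known.

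The series holds 2 arrays of gastrocnemius RNA from male C57BL/6 mice aged 9 weeks, wild type per the series' design. One array was hybridised with RNA of control mice and the other with RNA of mice whose hindlimb muscles had been held in a plaster cast for 11 days. RNA of 6 mice was pooled for each array, so there is 1 array per group, the spread between mice was not measured, and no test of the cast against the control is possible. All differences below compare these 2 arrays, and a 2-fold change is a size, not a test.

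An antibody is built from paired heavy chains and light chains, and each light chain is either kappa or lambda. A chain has a variable region, which binds antigen and is encoded by joined gene segments, and a constant region, whose type in the heavy chain sets the class (IgM, IgD, IgG, IgE or IgA). B cells first make IgM and IgD, and class switching then puts another constant region behind the same variable region. Plasma cells secrete antibody in quantity, and the joining chain links IgM and IgA into larger forms. The loci are rearranged in cells of the B lineage and not in muscle fibres.

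The probe sequences show what each constant region probe reads. They are given 5′ to 3′ in the sense of the transcript, as on the array, with positions on mouse build mm9 from the array's annotation. The 3 heavy chain probes that differed 2-fold or more come first. The IGHM probe lies at chr12:114659630-114659689 on the minus strand. The IGHG2C probe lies at chr12:114525600-114525659 on the minus strand, reads without a stop from its first base, and ends in a stop codon, which is in capitals. The third probe is described on the array as heavy chain 1a of serum IgG2a. It lies at chr12:114525496-114525555 on the minus strand, 44 bases downstream of the IGHG2C probe, and 30 of its 60 bases are shown, with the letters AATAAA, the common polyadenylation signal, in capitals. C57BL/6 mice carry the IgG2c form of this gene in place of IgG2a, so both probes are read here as probes of 1 gene.
IGHM: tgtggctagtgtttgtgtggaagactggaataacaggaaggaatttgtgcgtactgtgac
IGHG2C: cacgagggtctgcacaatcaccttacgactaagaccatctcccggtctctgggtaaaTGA
Serum IgG2a probe, 30 bases: atcccttgtataAATAAAgcacccagcaaa

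A pair of probes for the lambda constant region IGLC3 and a trio of kappa variable probes show how far probes on this array share sequence. The IGLC3 probes lie at chr16:19065462-19065521 and chr16:19065480-19065539 on the minus strand and have 42 bases in common, in capitals. The IGKV4 probes lie at chr6:68992966-68993025 (IGKV4-79), chr6:69147577-69147636 (IGKV4-73) and chr6:69349806-69349865 (IGKV4-62), all on the minus strand, and capitals mark bases that differ from IGKV4-73 at the same place.
IGLC3 probe a: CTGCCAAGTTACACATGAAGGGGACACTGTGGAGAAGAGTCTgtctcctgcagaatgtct
IGLC3 probe b: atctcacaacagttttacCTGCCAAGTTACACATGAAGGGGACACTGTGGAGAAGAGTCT
IGKV4-79: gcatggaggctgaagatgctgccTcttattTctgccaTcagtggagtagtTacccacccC
IGKV4-73: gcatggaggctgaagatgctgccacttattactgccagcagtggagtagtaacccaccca
IGKV4-62: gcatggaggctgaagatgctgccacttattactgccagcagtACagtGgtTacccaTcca

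Most chain probes gave no signal that the scanner software called well above background. Of the 161, 14 (8.7%) were above background on both arrays, 15 on the control array alone, 3 on the cast array alone and 129 (80.1%) on neither. Over all 39418 probes, 55.9% were above background on both arrays and 38.5% on neither. The 129 undetected chain probes had control signals from 2.63 to 16.7 (median 3.92) and cast signals from 4.10 to 28.0 (median 5.87), in the scanner's units of processed signal. The dimmest probe called above background read 13.1 for the control and 20.6 for the cast. A chain probe below that level has only an upper bound, and the data do not show that its transcript was absent.

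The cast array was the brighter of the pair, with a 75th percentile of 486 against 385. Each array was therefore divided by its own 75th percentile, and a log2 ratio is the scaled cast value minus the scaled control value. Equal signals on both arrays thus give a ratio below 0. The median ratio was -0.02 over the 22032 probes above background on both arrays. Without scaling it was 0.31, and with scaling on the spike-in controls 0.33. Over all probes the control array had 60.6% above background, the cast array had 56.8%, and 84.5% of those above background on only 1 array were so on the control array; among the chain probes that share was 83.3%. The labelled tissue was checked on its markers, which cannot tell the 2 arrays apart: all 10 skeletal muscle markers were above background on both arrays, with log2 ratios from -0.59 to 0.14.

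The large differences lay in 3 heavy chain constant region probes and ran in opposite directions: IgM was lower on the cast array and IgG2c was higher. Of the 14 chain probes measured on both arrays, 2 were higher on the cast array by 2-fold or more and 1 was lower by 2-fold or more. Over all measured probes 2.17% were higher and 2.02% lower by that size. At 1.5-fold the chain counts were the same, against 7.24% and 7.95% of all probes. The median log2 ratio was -0.06 over the 14 chain probes, -0.12 over the 7 heavy chain probes and -0.06 over the 7 kappa chain probes. These medians were close to that of all probes and lay above 0 without scaling and with spike-in scaling, as did the median of all probes. The chain median was also slightly above 0 under median (0.02), quantile (0.01) and loess (0.03) scaling. So was the kappa median, while the heavy chain median stayed below 0 under these settings.

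IGHM, the constant region of IgM, was printed in 10 spots per array. Its 10 control spots read 1066 to 1156 (mean 1109), its 10 cast spots read 254 to 342 (mean 283), and the 2 ranges did not overlap. The log2 ratio was -2.31, with a spot-to-spot SD of 0.12, so the scaled signal was 4.94-fold lower on the cast array. It was the 12th lowest ratio of the 22032 probes. The spots measure technical error within the arrays and not the spread between mice. A second probe named for this gene by an older symbol (Igh-6) was above background on neither array, at 12.6 on the control and 20.9 on the cast.

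IGHG2C, the constant region of IgG2c, read 102 on the control and 452 on the cast. Its log2 ratio was 1.81, or 3.51-fold higher after scaling. The serum IgG2a probe, 44 bases farther along the same strand, read 59.6 on the control and 279 on the cast, a log2 ratio of 1.89 or 3.71-fold higher. Both had 1 spot per array. Among replicated probes with a mean signal of at least 64 and in the same brightness class as these, the spot-to-spot SD of the log2 ratio had a median of 0.12 and a 90th percentile of 0.19, far below either ratio. In rank they stood 100th and 85th from the highest of the 22032 probes. As probes of 1 gene they are not independent of each other.

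The IgM and IgG2c differences kept their sides under each of the scalings and background corrections tried. IGHM lay between -2.31 and -1.96, IGHG2C between 1.38 and 2.16, and the serum IgG2a probe between 1.13 and 2.24, with the smallest values of the latter pair under the normexp background correction. The IGHG2C ratio minus the IGHM ratio was 4.12, a value that no constant scaling of an array changes. It was 3.41 under normexp. The proportion of IgG2c to IgM signal was therefore higher in the cast pool than in the control pool for these probes.

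The other heavy chain constant region probes were read in the order of their genes along chromosome 12, which RefSeq gives as Ighm, Ighd, Ighg3, Ighg1, Ighg2b, Ighg2c, Ighe and Igha. Of the 14 chain probes on this stretch, 9 were above background on 1 or both arrays. IGHD, the constant region of IgD, which mature B cells carry together with IgM, read 27.9 on the control and 13.4 on the cast, where it was not well above background. It was at least 1.72-fold lower, where such a bound sets the bright array against the lowest signal above background on the other array. If the probe's own signal there was higher, that signal was used, and the value is then a plain scaled ratio and no minimum. Undetected chain probes read up to 28.0 on the cast, above its dimmest detected signal of 20.6. The words at least, here and below, thus refer to that dimmest signal and set no strict minimum. IgM and IgD were thus both lower on the cast array, IgD only by a bound under 2-fold.

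The remaining IgG classes gave little signal. IGHG3 read 5.13 on the control and 6.29 on the cast, and IGHG1 3.50 and 5.53, above background on neither array. A gamma chain probe named Ighg lies just upstream of the IGHG1 probe. It read 15.7 and 31.5, above background on the cast alone and 1.58-fold higher there by its plain scaled ratio. Another probe of the same transcript, which the array describes as similar to a gamma 2A chain, read 3.83 and 5.94, above background on neither array. A predicted gamma chain transcript that lies between the IGHG1 and IGHG2C probes, where RefSeq's order has Ighg2b, had 2 probes. One read 22.7 on the control and 40.6 on the cast, a log2 ratio of 0.50. The other read 10.6 and 6.57, above background on neither array, so the pair gave no common direction.

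IGHE, the constant region of IgE, read 15.99 on the control and 33.03 on the cast. It was above background on the cast alone and 1.63-fold higher by its plain scaled ratio. The other 4 probes around and beyond IGHE carry no class name on the array. The outermost one, at chr12:114496985-114497044 on the minus strand, where RefSeq's order has Igha, read 51.1 on the control and 59.5 on the cast, a log2 ratio of -0.12. Its neighbour at chr12:114497090-114497149 was above background on neither array (15.2 and 28.0). A cDNA probe about a kilobase upstream read 18.5 on the control and 13.5 on the cast, above background on the control alone. Its bound of 1.14-fold lower arose through the scaling alone. The probe upstream of IGHE was above background on neither array, at 8.74 and 9.16. None of these 4 reached 2-fold.

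Heavy chain variable segments, which bind antigen, were mostly dim: 2 of 54 probes were above background on both arrays, 3 on the control alone and 1 on the cast alone. IGHV5-17 read 24.5 on the control and 26.5 on the cast (log2 ratio -0.22), and IGHV10-3 read 29.4 and 30.3 (-0.29). These 2 probes share 47 bases of 59 aligned. Another IGHV5-17 probe read 3.74 on the control and 13.1 on the cast, above background on neither array. IGHV6-7 read 47.6 on the control and 5.46 on the cast, where it was not well above background. It was at least 2.92-fold lower.

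IGHV6-7 was the only chain probe seen on 1 array whose bound passed 2-fold. It was 1 of 15 chain probes above background on the control alone (6.67%), and 6.65% of all such probes passed. None of the 3 chain probes above background on the cast alone passed, against 35.8% of all such probes. IGHV1-14 was the nearest below, at 29.0 on the control and 4.38 on the cast, at least 1.78-fold lower. IGHV5-2 read 18.3 and 18.6, nearly level before scaling, and its bound of 1.12-fold lower arose through the scaling alone. IGHV1S6 read 17.3 and 32.6, or 1.497-fold higher on the cast by its plain scaled ratio.

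Kappa chains, the light chains of most mouse antibodies, gave no probe that differed 2-fold. Of the 79 kappa probes, 7 were above background on both arrays, 6 on the control alone and 66 on neither. The brightest was IGKV4-71, which read 52.0 on the control and 54.6 on the cast (log2 ratio -0.27). IGKV4-50 followed with 42.5 and 51.2 (-0.07), and IGKV4-58 with 37.3 and 40.5 (-0.22). Before scaling, signals of IGKV4-71 and IGKV4-58 were nearly level between the arrays, and that of IGKV4-50 was higher on the cast.

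The 4 dimmer kappa probes spanned both signs. IGKV8-24 read 30.5 on the control and 37.0 on the cast (log2 ratio -0.06), and a probe described as similar to a kappa chain (LOC100047162) read 21.01 and 25.6 (-0.05). IGKV17-121 read 19.8 and 29.97 (0.26), and IGKV4-51 read 20.7 and 36.2 (0.47). Another LOC100047162 probe read 6.64 on the control and 4.13 on the cast, above background on neither array. Over all 11 chain probes inside 2-fold the ratios ran from -0.29 to 0.50, at signals from 19.8 to 59.5. Replicated probes with a mean signal below 64 had a median spot-to-spot SD of 0.21 and a 90th percentile of 0.55, and none of the 11 ratios exceeded that percentile. The values nearest the 2-fold size were thus 0.50 inside it and 1.81 beyond it on the higher side, and -0.29 and -2.31 on the lower side.

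The kappa constant region was not read by a clear probe. A probe named Igk-C on the array, at chr6:70690489-70690548 on the plus strand, is described there as an unclassifiable cDNA from bone, and it read 3.46 on the control and 10.1 on the cast, above background on neither. The level of kappa light chain as a whole was therefore not measured here, and the kappa values above are those of single variable segments.

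The IGKV4 family stood out among the kappa variable segments in detection. Of its 17 probes 9 were above background on the control array, against 3 of 58 other kappa variable probes. Of these 17, 10 shared at least 45 bases with another probe of the family, so readings within the family are not independent of each other. IGKV4-79 and IGKV4-73 share 55 of 60 bases, as do IGKV4-73 and IGKV4-62, and the sequences above show where they differ. IGKV4-79 read 20.6 on the control and 5.80 on the cast, at least 1.27-fold lower. IGKV4-73 read 16.9 and 15.0, with a bound of 1.04-fold lower, and IGKV4-62 read 18.5 and 17.5, with a bound of 1.13-fold lower. Both of the latter bounds arose through the scaling alone, since these control signals lay under the dimmest detected cast signal. All 3 were above background on the control alone and near its lowest detected signal, so the gap between them in cast signal lies below what the cast array called detected.

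The remaining kappa probes above background on the control alone were IGKV4-92, IGKV4-54 and IGKV6-25. IGKV4-92 read 14.8 on the control and 15.0 on the cast and IGKV4-54 read 16.2 and 15.9, for which no bound above 1-fold could be given. IGKV6-25 read 20.5 and 22.5, or 1.15-fold lower by its plain scaled ratio. Over all chains, 47 probe pairs had at least 45 bases in common, and these involved 54 of the 161 probes, 4 of them measured on both arrays. The probes are therefore not 161 independent readings. Measured chain probes had a median GC content of 51.7% and undetected ones 45%, against 43.3% for all probes measured on both arrays.

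Lambda light chains gave no probe above background on both arrays, so they have no median ratio. The 2 overlapping IGLC3 probes read 28.8 and 16.8 on the control and 7.997 and 4.64 on the cast, both above background on the control alone. Their bounds were 1.77-fold and 1.03-fold lower, the latter through the scaling alone. IGLC2 read 23.9 on the control and 21.04 on the cast, or 1.44-fold lower by its plain scaled ratio. IGLC1 read 16.6 and 16.9, above background on neither. The 3 lambda constant region probes above background, 2 of them overlapping, were thus so on the control array alone, none with a bound of 2-fold. Over all probes seen on 1 array, 84.5% were on the control. The surrogate light chain probe (lambda 5, part of the receptor of B cell precursors) and both lambda variable probes were above background on neither array.

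The joining chain probe read 22.2 on the control and 23.8 on the cast, above background on the control alone. After scaling it was 1.18-fold lower on the cast, a plain ratio and no minimum. It therefore stood near the limit of detection on both arrays.

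Genes of the cells that make antibody were read beside the chains. Of 20 B cell markers, 7 were above background on both arrays and 9 on the control alone, the array that held 84.5% of all probes seen on 1 array and had the lower detection limit. Some of the 9 gave no lower signal on the cast before scaling, such as Spib, a B cell transcription factor, at 17.5 on the control and 20.2 on the cast. The 7 measured on both had a median log2 ratio of -0.51, against -0.03 over 15753 genes, and the median was -0.16 both with spike-in scaling and under normexp. Of the 7, 5 were below 0 and 2 above. None of them passed 2-fold, beside 2.25% of genes higher and 2.1% lower. Cd79b, a signalling partner of the antibody in the B cell receptor, read 61.1 on the control and 25.3 on the cast. It was above background on the control alone and 3.05-fold lower by its plain scaled ratio. Vpreb3, made in B cell precursors and some mature B cells, read 43.2 and 30.4, or 1.80-fold lower by its plain scaled ratio. Cr2, a complement receptor, read 57.95 and 39.99 (log2 ratio -0.87). Cd79a read 21.02 and 20.6, above background on the control alone, and Ms4a1 (CD20) read 8.45 and 5.79, above background on neither. The 2 above 0 were Cd37, found on B cells and other leukocytes, which read 191 and 356 (0.56), and Ebf1, a B lineage factor also made in other cells, which read 218 and 323 (0.23).

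The summed level of the 20 B cell markers, in units of each array's 75th percentile, was 4.60 on the control and 3.86 on the cast, probes below background included. Without Blnk, a signalling adaptor and the largest term, it was 2.50 and 2.38. The part of B cells in the IgM value was not tested. In RNA of whole muscle, fewer cells of a type and less RNA per cell cannot be told apart.

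Plasma cell genes did not follow IgG2c by 2-fold. Of 13 markers, 7 were measured on both arrays with a median log2 ratio of -0.14 (0.20 without scaling), and none passed 2-fold. Mzb1, a chaperone for antibody assembly, read 41.4 on the control and 52.1 on the cast, with a ratio of 0.00 after rounding. Sdc1, the plasma cell surface protein CD138, read 87.5 and 72.1 (-0.62), and Irf4, a factor needed for plasma cell formation, 59.1 and 52.0 (-0.52). Xbp1, which drives the secretory machinery and is made by many other cells, read 6088 and 9788 (0.35). Prdm1 was above background on the control alone, and Tnfrsf17, Derl3, Fkbp11 and Pou2af1 on neither. The summed level was 27.0 on the control and 30.1 on the cast, with Xbp1 as its largest term. Eaf2, the next largest, read 3770 and 4335 (-0.14). Of the 7 measured markers Xbp1 alone was above 0 and 6 were below. The part of plasma cells in the IgG2c value was not tested.

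Of 17 genes of the machinery that joins and switches antibody genes, 13 were measured and none passed 2-fold. Rag1 and Rag2, which cut the loci, were above background on neither array, as was Exo1. The median log2 ratio of the 13, mostly general DNA repair factors, was -0.07. Dntt, which adds bases at the joints of gene segments, read 43.8 on the control and 80.1 on the cast (0.53), and the end-joining factor Xrcc5 (Ku80) read 1493 and 1290 (-0.55). B cell receptor signalling genes, many shared with other leukocytes, had a median of 0.01 over 14 of 16 measured genes, with 7 above 0 and 7 below, and none passed 2-fold. Both medians changed sign under at least 1 other setting. Of 14 genes for the surrogate light chain and B cell growth factors 12 were found by name, 5 were measured, and the median was -0.18 (0.16 without scaling). Among them Cxcl13, a chemokine for B cells, read 35.1 on the control and 72.1 on the cast (0.70), and Tnfsf13b (BAFF), a B cell survival factor, 30.9 and 45.9 (0.23).

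Receptors that bind the antibody constant region were read next. Of 11 genes, 8 were measured with a median log2 ratio of 0.20, above 0 under every scaling tried, and none passed 2-fold. Fcgr2b, the inhibitory IgG receptor, read 57.2 on the control and 142 on the cast (0.97); over the settings tried its ratio ran from 0.51 under normexp to 1.32 with spike-in scaling. Fcgr3 read 59.0 and 118 (0.66) and Fcgr4 19.8 and 39.6 (0.66), both activating IgG receptors. With spike-in scaling both were at 1.01, so that 3 of the 8 passed 2-fold, and under normexp they were at 0.36 and 0.10. Fcgr1, the high-affinity IgG receptor, read 14.4 and 27.8, above background on the cast alone and 1.53-fold higher by its plain scaled ratio. Fcgrt, the receptor that recycles IgG and carries it across cells, read 1421 and 1288 (-0.48). The part of cells that carry these receptors in the IgG2c value was not tested.

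Markers of other cells moved as follows beside these values. Macrophage markers had a median log2 ratio of 0.29 over 9 of 12 measured genes, with a summed level of 22.9 on the control and 20.2 on the cast, and none passed 2-fold. Without Itgam, the largest term, the summed level was 9.14 and 10.6. Among the macrophage genes Lyz2 gave 0.58, C1qb 0.52, Itgam -0.53 and Adgre1 -0.06. Neutrophil markers had a median of 0.25 over 7 of 10, with a summed level of 1.25 and 3.04, and 2 passed 2-fold, S100a9 (2.23) and S100a8 (2.21). Without this pair the summed level was 0.744 and 0.682. Of the other measured genes, Retnlg gave 0.84, Camp 0.25 and Mpo 0.18, while the granule protease Elane gave -0.54 and Ly6g -0.41. Red blood cell markers had a median of 0.14 over 6 of 8, with a summed level of 238 and 270. T cell markers had a median of -0.13 over 3 of 14 (0.21 without scaling), with a summed level of 2.37 and 2.34. Cd3e was at 0.31, Cd4 at -0.13 and Cd2 at -0.14. Of the other T cell markers, 4 were above background on the control alone and 7 on neither array. Ptprc (CD45), which all leukocytes carry, read 30.3 on the control and 53.9 on the cast (0.49).

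Markers of lymph nodes, which can be carried along with a dissected muscle, had a median log2 ratio of -0.45 over 5 of 10 measured genes (-0.10 with spike-in scaling), and none passed 2-fold. Of the 5, Cr2 and Fcer2a are also B cell markers. The summed level was 7.57 on the control and 5.68 on the cast. Ltb, a cytokine of lymphocytes, read 39.0 on the control and 23.5 on the cast. It was above background on the control alone and 2.10-fold lower by its plain scaled ratio. Ccl21a read 2597 and 2401 (-0.45), and Glycam1, made in the vessels of lymph nodes, was above background on neither array. Cxcl13, given above, was at 0.70, and the lymphoid chemokine Ccl19 was at 0.03. The cytokine Lta read 15.0 and 32.5, above background on the cast alone and 1.72-fold higher by its plain scaled ratio. The part of lymph node tissue, blood and each of the leukocyte types in the IgM and IgG2c values was not tested.

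Other probes lie between the chain probes, some of them described on the array as similar to antibody chains in words the rule did not search for. On the heavy chain stretch of chromosome 12, 88 other probes had a value, 8 were measured on both arrays (4 of them so described), and none of the 8 was 2-fold higher or lower. On the kappa stretch of chromosome 6, 31 others had a value, 4 were measured (2 so described), none was 2-fold higher and 1 was 2-fold lower. On the lambda stretch of chromosome 16 none of 3 others was measured. The large heavy chain differences were thus those of the IgM and IgG2c constant regions among the probes measured there.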

How the data were processed

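Total RNA was labelled with Cy3 and hybridised to 1-colour Agilent arrays, 1 per group. The deposited intensity is the processed signal, which the scanner software had background-subtracted and detrended within each array, per the file headers; Agilent Feature Extraction 9.5 is named in the submitters' processing notes. Spots of a probe were averaged as log2 intensity, spots marked non-uniform were left out (none among the chain probes), and each array's 75th percentile over non-control probes was subtracted. "Measured" means well above background on more than 0.5 of a probe's spots on both arrays. No spot was saturated, and having only 2 arrays limits the precision. A table deposited with the series holds the same signals, each array scaled by the authors to its 75th percentile times 100; it served as an alternative. Others were median, quantile, loess, spike-in (7 probes) and no scaling, normexp on mean and background signal (offset 50), looser detection, a 1.5-fold size, 1 value per name, and membership by name alone or with the 4 probes of no chain. Python 3.11.15 with pandas 2.3.3 and numpy 2.4.6, and R 4.3.3 with limma 3.58.1 were used, after the ratio and count steps had been tested on simulated data.

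Symbols were updated through RefSeq for 26048 of 39418 probes by accession (5 of the 165 found by the rule); others keep the array's names, some of them old. RefSeq (GRCm38) served only for names and gene order, and coordinates are the array's, on mm9. The members and the 12 gene lists (146 genes) were chosen with earlier results of these data known. The text names every constant region probe, in each chain the 4 brightest, 4 highest and 4 lowest measured probes, probes on 1 array with a bound of 2-fold, and, of each list, up to 4 measured genes of largest ratio besides a few defining markers. Some genes of these lists are not reported here by name.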

Additional observations from a re-analysis of the deposited data

How the results depend on the processing

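Of the values compared under other settings, 45 counts and medians stayed close to their main value and 17 moved. Among those that stayed close, the chain and kappa medians changed sign under median, quantile and loess scaling. For the IGHM, IGHG2C and serum IgG2a ratios and the IGHG2C minus IGHM gap, 22 values stayed close and 10 moved. None of the large differences turned its direction. The scaling set the medians. Without scaling the median log2 ratio was 0.28 over the chain probes, 0.22 over heavy and 0.28 over kappa probes. With spike-in scaling these medians were 0.29, 0.23 and 0.29. Both settings move all probes, to medians of 0.31 and 0.33. The detection filter set the counts, since it changes which probes enter. With probes above background on at least 1 array 7 had ratios 2-fold lower, most of them against a cast signal not above background (by their bounds only IGHV6-7 and IGHM pass), and the medians were -0.25, -0.22 (heavy) and -0.22 (kappa). With no filter 7 were higher and 12 lower, and the medians were 0.27, 0.29 and 0.25. Taken by gene name alone, 0 probes were higher and 0 lower, since the IGHM, IGHG2C and serum IgG2a probes carry transcript names. Adding the 4 probes of no chain, an alternative chosen after seeing the data, left both counts as they were. Lambda probes have no median, since none was above background on both arrays. Under normexp IGHG2C was 1.38, the serum IgG2a probe 1.13 and IGHM -2.03. No paired analysis was possible because each group has 1 array of pooled RNA. Of the 161 chain probes 129 were too dim to be compared.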

Other observations

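A probe with no gene name or description on the array lies among the kappa variable segments, at chr6:70081318-70081377 on the plus strand of mm9. It read 2431 on the control and 767 on the cast, a log2 ratio of -2.003 and 4.01-fold lower. It is the 1 probe of the kappa stretch that differed 2-fold, it was singled out after its value was seen, and whether it reads an immunoglobulin transcript is not known here. Its sequence is given because nothing else identifies it.
Unnamed probe: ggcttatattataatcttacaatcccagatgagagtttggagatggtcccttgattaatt

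The 4 probes that met the rule without being chain probes were all above background on both arrays. Rbpj, the factor that carries Notch signals to DNA, had 1 probe that read 782 on the control and 1014 on the cast (log2 ratio 0.04) and 1 that read 73.8 and 108 (0.21). Rbpjl, its pancreas relative, read 38.0 and 37.0 (-0.38), and Iglon5 read 144 and 147 (-0.31).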
